A study of Mus musculus with 6 samples.

Results

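The genes of the LIF (leukaemia inhibitory factor) pathway were compared between mouse embryonic stem cells (ESCs) and epiblast-like cells (EpiLCs). The set has 10 members, which were taken by name from the 24736 genes of the deposited expression table. It holds the receptor chains Lifr and Il6st, the kinase Jak1, the transcription factor Stat3, the inhibitors Socs1, Socs2 and Socs3, and Gbx2, Pim1 and Pim3, which are known targets of STAT3. From ESCs to EpiLCs 8 of the 10 members fell, by between 2.65-fold for Gbx2 and 17.5-fold for Socs3, and 0 rose. Jak1 and Socs2 did not pass the test. Of all 14468 genes tested, 22.8% fell and 22.6% rose by the same test.

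LIF binds LIFR, which pairs with gp130, the protein of Il6st. The kinases bound to the receptor chains, JAK1 foremost among them, then phosphorylate STAT3, which enters the nucleus and activates its targets. In mouse ESCs the pathway sustains self-renewal, and among the targets of STAT3 is Socs3, whose protein binds gp130 and JAK and shuts the signal down. EpiLCs resemble the postimplantation epiblast and do not depend on LIF.

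All 6 libraries came from wild-type cells, which per the study's methods are the XY HM1 TetON line, a single ESC line. The ESC group, at 0 h, was undifferentiated and was grown on feeder fibroblasts in knockout DMEM with 10% serum and 1000 U/ml LIF, and feeders were removed by their adhesion before differentiation. The EpiLC group was collected after 48 h in N2/B27 basal medium to which bFGF (10 ng/ml) and LGK974 (5 µM), an inhibitor of WNT secretion, had been added, and neither LIF nor serum is listed for that medium. Each group had 3 biological replicates, and loss of LIF, serum and feeder contact cannot be told apart from addition of bFGF and LGK974 or from time.

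Depth ranged from 16967741 to 35096210 expected counts per library. The labels were set beside marker genes, and all 8 naive ESC markers fell while all 8 EpiLC markers rose. These lists were chosen with earlier results of these data known, so they are no independent check of the labels. A list of 15 fibroblast markers summed to 414, 1950 and 151 TPM (a read measure scaled for transcript length and library) in ESC replicates 1, 2 and 3 and to 87.5 to 108 TPM in EpiLCs, so that ESC replicate 2 stood apart. Of these markers 14 could be tested and 8 fell, and Lum was too low for the test. The 10 immediate early genes, which respond within minutes to growth factors and to handling, summed to 1080 to 1650 TPM in ESCs and 157 to 233 TPM in EpiLCs, and 8 of them fell. Of 10 primitive endoderm markers 6 fell and 1 rose, and their summed TPM was 151 to 245 in ESCs and 87.0 to 107 in EpiLCs.

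To show where STAT3 could act close to the start of these genes, promoter windows from 250 bases before to 50 bases after the start were taken from RefSeq on GRCm38.p6, whose coordinates are those of mm10. The members matched 11 windows of 9 genes, all but Socs2. STAT dimers recognise the palindrome TTCNNNGAA, and TTCNNNNGAA is the same palindrome with a longer spacer. Each motif was sought on both strands, and since both palindromes read the same on either strand each site counts once. Of the 11 windows, 1 held TTCNNNGAA, that of Socs3, and 1 held TTCNNNNGAA, that of Gbx2. Of all 32851 windows in the reference, 8.3% held the first motif and 6.95% the second. GGGCGG or its complement, the GC box of the general activator SP1, lay in 9 of the 11 windows and in all 9 genes, against 35.7% of all windows. TATAAA was in 0 of the 11 windows, against 13.6% of all windows. The median GC content was 64.7% for the members' windows and 52.7% for all windows.

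The windows of Socs3 and Gbx2 are printed because they hold the members' STAT palindromes, and those of Pim1 and Pim3 because these genes fell without holding one. All are written 5′ to 3′ on the strand of the gene, and capitals mark TTCNNNGAA, TTCNNNNGAA and GC boxes. In order, they lie at chr11:117969317-117969616 (minus strand), chr1:89931127-89931426 (minus strand), chr17:29490535-29490834 (plus strand) and chr15:88861944-88862243 (plus strand).
Socs3: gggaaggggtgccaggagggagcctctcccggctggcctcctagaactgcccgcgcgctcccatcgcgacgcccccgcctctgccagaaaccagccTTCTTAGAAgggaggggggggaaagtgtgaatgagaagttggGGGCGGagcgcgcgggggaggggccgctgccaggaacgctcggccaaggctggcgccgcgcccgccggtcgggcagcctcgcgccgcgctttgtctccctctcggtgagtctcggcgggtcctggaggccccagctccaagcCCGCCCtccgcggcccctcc
Gbx2: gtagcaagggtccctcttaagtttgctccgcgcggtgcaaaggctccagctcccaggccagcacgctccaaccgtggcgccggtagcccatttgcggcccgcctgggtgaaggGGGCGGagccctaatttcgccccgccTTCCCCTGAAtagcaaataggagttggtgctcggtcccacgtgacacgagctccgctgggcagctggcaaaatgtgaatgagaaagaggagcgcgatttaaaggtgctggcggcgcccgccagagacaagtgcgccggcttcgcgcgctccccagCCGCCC
Pim1: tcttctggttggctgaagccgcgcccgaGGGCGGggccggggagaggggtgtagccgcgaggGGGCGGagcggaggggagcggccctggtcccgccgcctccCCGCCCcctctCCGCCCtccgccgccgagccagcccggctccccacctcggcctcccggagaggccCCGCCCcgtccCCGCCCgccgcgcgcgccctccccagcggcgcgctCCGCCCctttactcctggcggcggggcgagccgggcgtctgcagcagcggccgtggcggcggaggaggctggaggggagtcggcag
Pim3: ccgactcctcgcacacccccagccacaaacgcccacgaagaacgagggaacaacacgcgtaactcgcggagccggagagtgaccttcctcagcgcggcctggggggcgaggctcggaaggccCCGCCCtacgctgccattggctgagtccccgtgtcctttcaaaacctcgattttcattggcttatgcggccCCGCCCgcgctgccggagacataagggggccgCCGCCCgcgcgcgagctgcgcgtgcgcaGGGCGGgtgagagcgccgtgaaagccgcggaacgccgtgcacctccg

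The palindrome of Socs3, TTCTTAGAA, begins 154 bases before the start that its window is drawn on (117969366), and that of Gbx2, TTCCCCTGAA, 111 bases before its own. This start is not the only one of Socs3, since the RefSeq gene reaches to 117970336, so that the palindrome lies within the span of the gene, and the transcript in the basic set of GENCODE begins at 117969186, 180 bases downstream. Pim1 held 7 GC boxes in the printed window and Pim3 held 4. Among 15 other reported STAT3 targets with windows, 4 of 25 windows (16.0%) held TTCNNNGAA. The fuller palindrome TTCCNGGAA was found among them in Icam1, 42 bases before its start, and is shown for comparison with that of Socs3.
Icam1: gaggtTTCCCGGAAagtggccccgacagca

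The form TTCCNGGAA was in 0 of the members' 11 windows and in 1.15% of all windows. These matches describe letters within 300 bases and no binding was measured here.

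**Figure D1:**
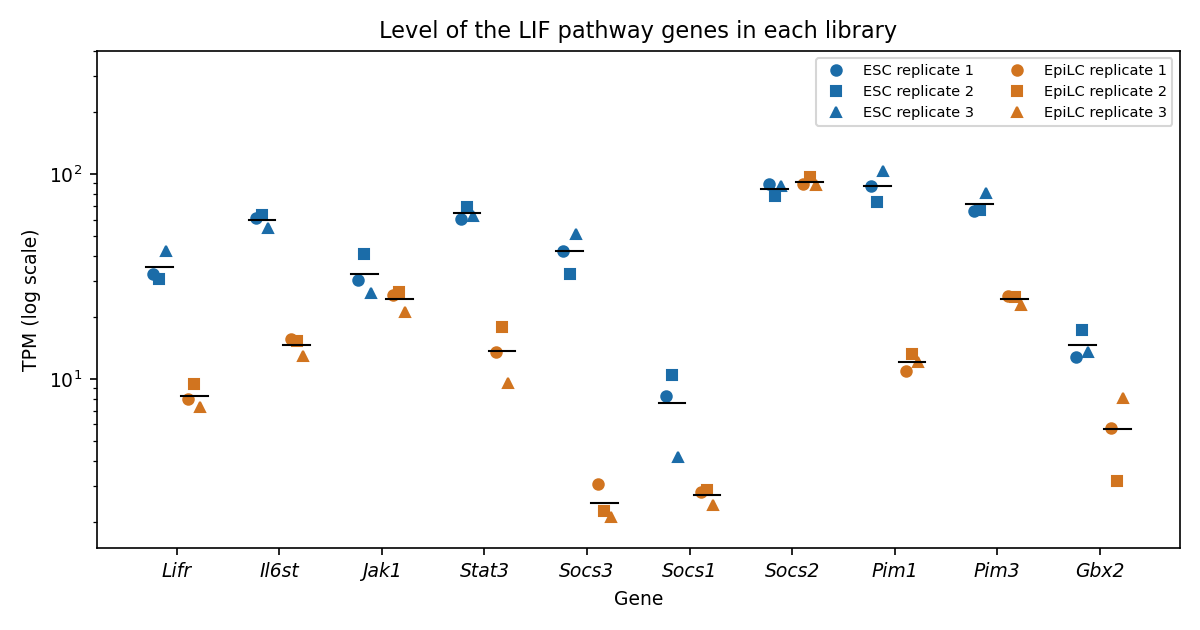
TPM of each of the 10 LIF pathway genes in every library, on a log axis. Blue points are ESC and orange points EpiLC libraries, the shape gives the replicate, and black bars are group means. For 8 genes every ESC point lies above every EpiLC point, and Jak1 and Socs2 overlap between the groups.

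The first question was how the receptor that receives LIF changed. Lifr, on chromosome 15 (7090610 to 7197489, plus strand), encodes the chain that binds LIF. Its level was 32.43, 30.68 and 42.38 TPM in ESC replicates 1, 2 and 3 and 7.98, 9.47 and 7.33 TPM in the EpiLC replicates. Every ESC library was above every EpiLC library, and the lowest ESC value was 3.24 times the highest EpiLC value. The difference (EpiLC over ESC, here and throughout) was -2.10 on the log2 scale (SE 0.15, n = 3 per group, adjusted p = 0.00017 by edgeR's quasi-likelihood test with Benjamini-Hochberg adjustment over all 14468 genes tested). Of those genes 45.4% passed the threshold of 0.05, 22.8% as lower and 22.6% as higher in EpiLCs, and 11.5% were called lower with a log2 fold change below -1. In 25.6% every ESC library was above every EpiLC library, and in 33.8% the reverse held. All 8 members that fell did so by more than 1 on the log2 scale and without overlap between groups. In bulk RNA, fewer cells that express a gene and less RNA in each cell cannot be told apart.

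Il6st, on chromosome 13 (112464070 to 112506860, plus strand), encodes gp130, the signalling chain shared by receptors of the IL-6 family. It was at 60.93, 63.02 and 54.39 TPM in ESCs and at 15.66, 15.34 and 13.01 TPM in EpiLCs. Again the groups did not overlap, and the replicates of each group lay close together. Il6st fell by 2.07 on the log2 scale (SE 0.09, adjusted p = 4.32e-05). The ESC mean of 59.4 ± 4.50 TPM (SD, n = 3) compared with 14.7 ± 1.45 TPM for EpiLCs, which is 23.8% of the ESC level on the scale of the fit, and Lifr was left at 23.4%.

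Whether the receptor chains fell by different amounts was tested with their ratio within each library. The ratio of Lifr to Il6st TPM was 0.532, 0.487 and 0.779 in ESCs and 0.51, 0.617 and 0.563 in EpiLCs. The ranges overlapped, and the mean log2 ratio was -0.769 ± 0.36 in ESCs and -0.832 ± 0.138 in EpiLCs, a difference of -0.063 (exact two-sided permutation test, p = 0.9, adjusted p = 0.9 over 3 ratios). Without ESC replicate 3 or without EpiLC replicate 1 that difference became 0.14 or 0.0076. With 3 libraries per group, the smallest p this test can give is 0.1.

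Of 5 other receptor chains of the family, 4 fell and 1 rose. Osmr, the partner of gp130 for oncostatin M, was at 6.48, 10.47 and 2.73 TPM in ESCs and at 0.12, 0.4 and 0.03 TPM in EpiLCs (log2 fold change -5.16, adjusted p = 0.00278). Il6ra, which binds IL-6, fell by 2.47 on the log2 scale (adjusted p = 0.00122), and Il27ra and Il11ra1 fell by 1.51 and 0.73. The call of Il11ra1 (adjusted p = 0.048) was lost in 9 of 14 alternative fits, which included leaving out every library but ESC replicate 3, and that of Il27ra without EpiLC replicate 1 (adjusted p = 0.0567). Cntfr, the chain that binds ciliary neurotrophic factor, was the member of the list that rose. It was at 6.74, 8.17 and 4 TPM in ESCs and 12.75, 9.11 and 12.82 TPM in EpiLCs (log2 fold change 0.84, adjusted p = 0.0457). Its call was lost on leaving out ESC replicate 1 or 3 or any EpiLC replicate, with log2 fold changes between 0.61 and 1.00 and adjusted p between 0.0511 and 0.136, and also with the replicate number as a block (0.87, adjusted p = 0.0709).

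As a share of the summed TPM of all 7 receptor genes, Il6st made up 51.2% ± 2.06 in ESCs and 38.0% ± 2.93 in EpiLCs, and Lifr 30.5% ± 6.83 and 21.4% ± 2.95. Cntfr went from 5.38% ± 1.59 to 29.9% ± 5.38 of a sum that itself went from 116 ± 5.78 to 38.6 ± 1.33 TPM. These shares were not tested.

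The ligand genes were also measured in the cells themselves. Of 10 ligand genes 8 could be tested, 2 fell and 0 rose, with 0 higher also at an unadjusted p under 0.05, by DESeq2 and by limma. Lif itself, which the ESC medium supplied as protein, was at 6.56, 6.99 and 4.43 TPM in ESCs and 4.89, 5.41 and 4.14 TPM in EpiLCs, and its groups overlapped (log2 fold change -0.35, SE 0.20, adjusted p = 0.182). Without ESC replicate 3 it was called lower (-0.52, adjusted p = 0.0297). Il6 was at 3.8, 5.9 and 2.46 TPM in ESCs and at 0, 0.06 and 0 TPM in EpiLCs (adjusted p = 0.000515). Osm, which encodes oncostatin M, was at 2.16, 2.42 and 4.04 TPM in ESCs and had no count in any EpiLC library (adjusted p = 0.000902). Against a floor of 3 counts per EpiLC library its ESC level in CPM was at least 28.0-fold higher. Among the ESCs, Il6, Osmr and Il6ra had their top value in replicate 2 and their lowest in replicate 3, the order of the fibroblast markers, whose part in these results was not tested. In the fit without ESC replicate 2, Il6 was still called lower (adjusted p = 0.000615). No size is given for Il6, which had at most 1 count per EpiLC library. Osmr was 4.65 lower on the log2 scale in that fit (adjusted p = 0.00317).

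The next step of the pathway is the kinase and its substrate. Jak1, on chromosome 4 (101151974 to 101265282, minus strand), encodes the kinase that gp130 needs most. Its level was 30.42, 40.87 and 26.37 TPM in ESCs and 25.84, 26.71 and 21.21 TPM in EpiLCs. The lowest ESC library lay below the highest EpiLC library, and ESC replicate 2 was the highest of all 6. The log2 fold change was -0.45 (SE 0.17, 95% interval -0.85 to -0.06) and did not pass the threshold (adjusted p = 0.0600). Jak1 was called lower by DESeq2 (adjusted p = 0.0202), with the replicate number as a block (0.0218) and without ESC replicate 3 (log2 fold change -0.57, adjusted p = 0.0211), whereas without ESC replicate 2 the log2 fold change was -0.26 (adjusted p = 0.0947). Over all alternatives the adjusted p lay between 0.0202 and 0.177.

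Stat3, on chromosome 11 (100886806 to 100939594, minus strand), encodes the transcription factor that carries the LIF signal to the genome. It was at 60.72, 69.47 and 62.54 TPM in ESCs and at 13.48, 17.88 and 9.55 TPM in EpiLCs. The ESC libraries were all above the EpiLC libraries, among which replicate 3 was lowest. Stat3 fell by 2.29 on the log2 scale (SE 0.21, 95% interval -2.78 to -1.80, adjusted p = 0.000341). In ESCs the TPM of Stat3 overlapped those of Il6st and Pim3, its neighbours in the order of levels, and in EpiLCs those of Il6st and Pim1.

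Of 3 other JAK kinases 2 fell and 0 rose, with 0 higher also at an unadjusted p under 0.05 and by DESeq2 and limma. Jak3, best known from lymphocytes, was at 23.86, 25.08 and 31.07 TPM in ESCs and at 6.3, 8.11 and 5.94 TPM in EpiLCs (log2 fold change -2.04, adjusted p = 0.000208). Tyk2, which can also bind gp130, fell by 0.76 on the log2 scale (adjusted p = 0.00542). Jak2, the remaining kinase, was not called (log2 fold change -0.59, adjusted p = 0.112), but without ESC replicate 3 it was called lower (-0.86, adjusted p = 0.00101). Jak1 thus made up 39.7% ± 5.59 of the summed JAK TPM in ESCs and 53.7% ± 3.02 in EpiLCs, while that sum went from 81.5 ± 7.85 to 45.7 ± 3.74 TPM.

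Other STAT factors were also measured. Stat5a, which acts downstream of prolactin and cytokine receptors, fell by 1.92 (adjusted p = 0.00114). Stat6 and Stat4 fell by 0.80 and 0.77. The call of Stat4 was lost on leaving out any EpiLC replicate (adjusted p between 0.0522 and 0.072). Stat2 was at 13.61, 8.60 and 14.82 TPM in ESCs and 15.58, 16.25 and 12.76 TPM in EpiLCs, and Stat5b also overlapped between groups.

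**Figure D2:**
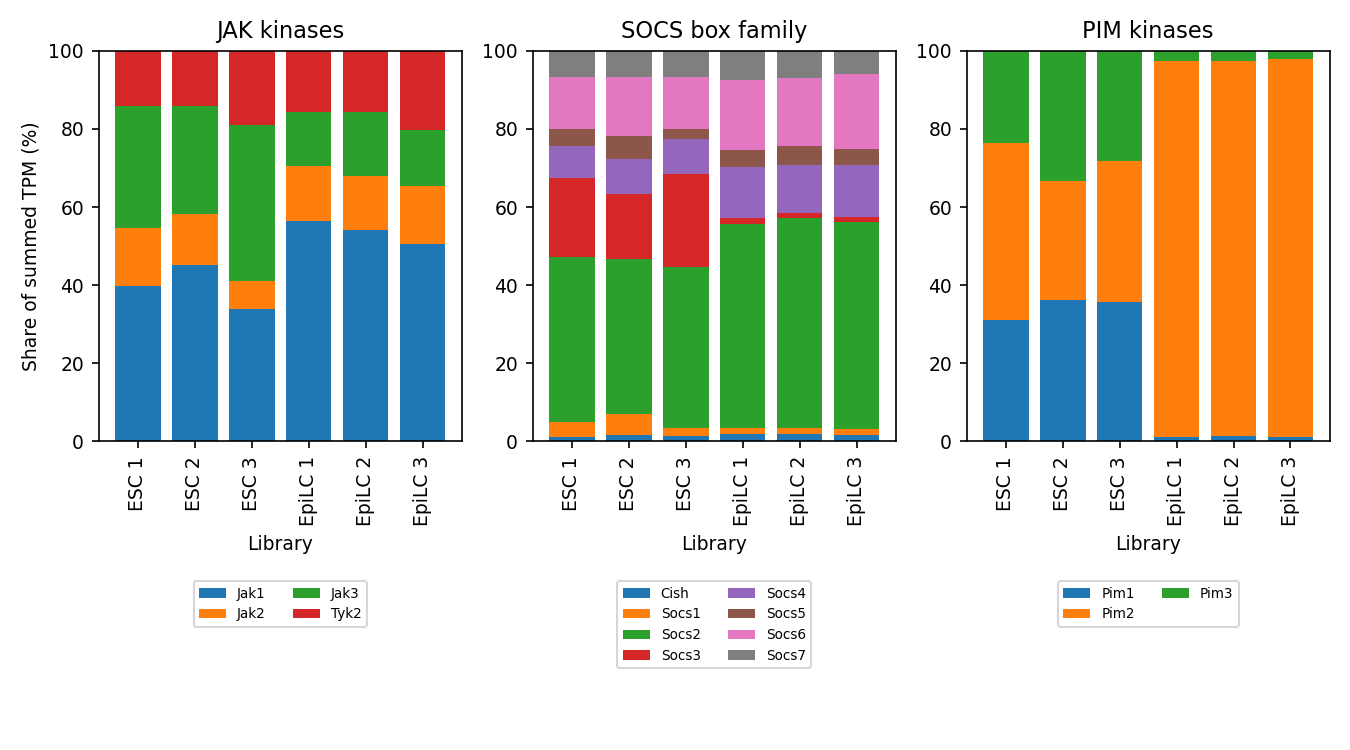
Share of each gene in the summed TPM of its family, in percent, for JAK kinases, SOCS box genes and PIM kinases, with 1 bar per library. Socs3 took 20.2% of the SOCS sum in ESCs and 1.44% in EpiLCs, and Pim2 took 37.2% and 96.2% of the PIM sum.

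The inhibitors of the SOCS family differed from one another. Socs3, on chromosome 11 (117966079 to 117970336, minus strand), encodes the feedback inhibitor of gp130, and its window is the one with the palindrome TTCTTAGAA. Its level was 42.32, 32.69 and 50.86 TPM in ESCs and 3.07, 2.27 and 2.13 TPM in EpiLCs. The lowest ESC value was 10.6 times the highest EpiLC value. Socs3 fell by 4.13 on the log2 scale (SE 0.23, 95% interval -4.66 to -3.59, adjusted p = 8.2e-05), to 5.73% of its ESC level. A larger fall was fitted for 1.37% of all genes tested, and among the members none fell further. Socs3 overlapped Lifr in the order of ESC levels, and in EpiLCs it was the lowest member together with Socs1, whose values it overlapped.

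To set the feedback gene against its activator, the ratio of Socs3 to Stat3 TPM was taken in each library. It was 0.697, 0.471 and 0.813 in ESCs and 0.228, 0.127 and 0.223 in EpiLCs. Every ESC ratio was above every EpiLC ratio, and the mean log2 ratio differed by -1.79 (-0.636 ± 0.407 in ESCs and -2.43 ± 0.478 in EpiLCs). The exact two-sided permutation test gave p = 0.1, the smallest it allows with 3 against 3, and 0.15 after adjustment over the 3 ratios. On leaving out each library in turn the difference lay between -2.02 and -1.51, and with log2(TPM + 1) it was -1.42.

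Socs1, on chromosome 16 (10783808 to 10785536, minus strand), encodes an inhibitor that binds JAK kinases directly and is best known from interferon signalling. It was at 8.23, 10.47 and 4.16 TPM in ESCs and 2.80, 2.88 and 2.43 TPM in EpiLCs. All ESC libraries were above the EpiLC libraries, and ESC replicate 3 was closest to them. Socs1 fell by 1.55 on the log2 scale (SE 0.34, adjusted p = 0.00976). The fall was 1.27 without ESC replicate 2 (adjusted p = 0.0161), and without ESC replicate 2 and EpiLC replicate 3 together it was 1.21 and lost its call (adjusted p = 0.0524).

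Socs2, on chromosome 10 (95383903 to 95417321, minus strand), encodes an inhibitor of growth hormone signalling that acts mainly on STAT5. Its level was 89.1, 77.9 and 87.6 TPM in ESCs and 89.9, 96.47 and 88.77 TPM in EpiLCs. The groups overlapped, and of the EpiLC libraries replicate 3 lay within the ESC range. The log2 fold change was 0.06 (SE 0.07, adjusted p = 0.506), with a 95% interval from -0.11 to 0.23, so that changes of more than 0.23 on the log2 scale in either direction lay outside the interval. In EpiLCs Socs2 was the highest member and was above Jak1, the next, in every library, whereas in ESCs it overlapped Pim1 and Pim3.

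With all libraries and TMM scaling, edgeR called 0 of the 5 remaining SOCS box genes, 1 was higher and 1 lower at an unadjusted p under 0.05, and DESeq2 called 1 lower and limma 1 higher. Socs4 had a log2 fold change of 0.25 (adjusted p = 0.0537) and Socs7 one of -0.30 (adjusted p = 0.0631). By edgeR, Socs4 was called higher with upper-quartile scaling (adjusted p = 0.0461) and without ESC replicate 3 (0.035), and Socs5 was called lower without ESC replicate 3 (-0.48, adjusted p = 0.04). Cish, a STAT5 target and inhibitor, was at 2.55, 3.36 and 3.02 TPM in ESCs and 3.32, 3.40 and 2.88 TPM in EpiLCs. As a share of all 8 SOCS box genes, Socs3 went from 20.2% ± 3.65 to 1.44% ± 0.294, Socs1 from 3.73% ± 1.69 to 1.56% ± 0.0938 and Socs2 from 41.0% ± 1.31 to 52.9% ± 0.842. The family's sum was 207 ± 8.79 TPM in ESCs and 173 ± 6.04 TPM in EpiLCs.

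Of 8 tested PIAS proteins and phosphatases 1 rose and 2 fell. Ptpn1, a phosphatase that acts on JAK2 and TYK2, rose by 0.36 on the log2 scale (adjusted p = 0.00904). Pias2, a SUMO ligase of the PIAS family, fell by 0.68 (adjusted p = 0.000652) and its relative Pias4 by 0.37 (adjusted p = 0.0121), although Pias4 lost its call without EpiLC replicate 1 or 2. Of 9 adaptors that carry the LIF signal into the ERK and PI3K branches 1 rose and 2 fell. Shc1 rose by 0.46 (adjusted p = 0.00214), Gab1 fell by 0.62 (adjusted p = 0.00449) and Grb2 by 0.24 (adjusted p = 0.0236), and the call of Grb2 was lost without any 1 of the EpiLC replicates and by limma. Akt1 was called higher without ESC replicate 2 (0.49, adjusted p = 0.0222). Over the 7 lists of other pathway genes, 44 of 47 genes were tested, 16 fell, 3 rose and 25 were not called, with a median log2 fold change of -0.33, against -1.83 for the members and -0.002 for all genes tested.

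**Figure D3:**
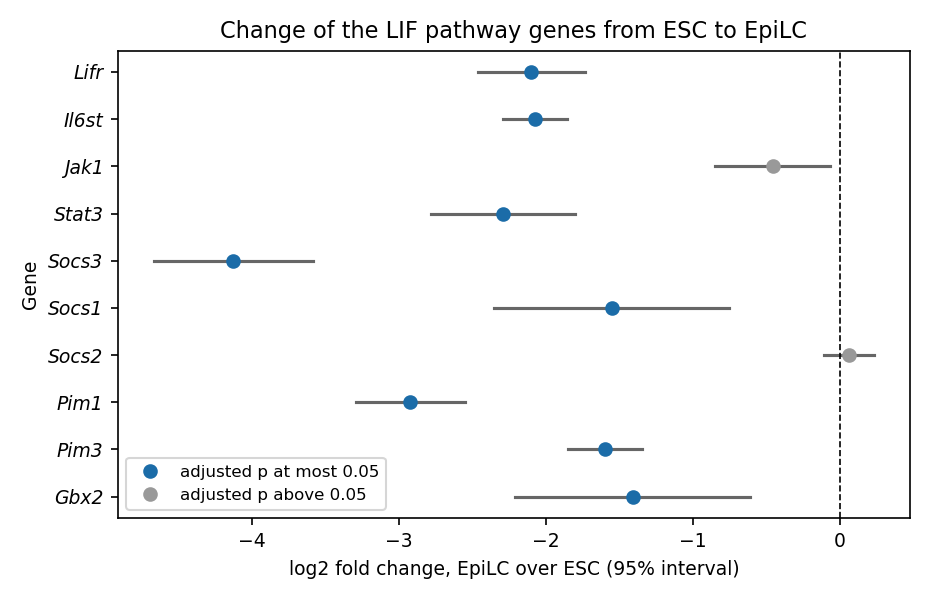
Log2 fold change of each member from ESCs to EpiLCs (points) with its 95% interval (lines), blue where the adjusted p was at most 0.05. Socs3 lies furthest to the left at -4.13, and Socs2 at 0.06 is the only member with an interval that spans 0.

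The last question was how the targets of STAT3 changed. Pim1, on chromosome 17 (29490785 to 29496111, plus strand), encodes a serine/threonine kinase that promotes growth and survival. It was at 87.25, 72.76 and 103.76 TPM in ESCs and 10.91, 13.21 and 12.04 TPM in EpiLCs. It had the highest mean of the members in ESCs, although it overlapped Socs2, and its lowest ESC library was 5.51 times its highest EpiLC library. Pim1 fell by 2.92 on the log2 scale (SE 0.16, adjusted p = 7.56e-05).

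Pim3, on chromosome 15 (88862194 to 88865726, plus strand), encodes a related kinase. Its level was 66.25, 66.88 and 81.28 TPM in ESCs and 25.41, 25.04 and 23.06 TPM in EpiLCs. The groups did not overlap, and the fall of 1.60 on the log2 scale (SE 0.11, adjusted p = 0.000128) left it at values that overlapped those of Jak1 in EpiLCs. The ratio of Pim1 to Pim3 was 1.32, 1.09 and 1.28 in ESCs and 0.429, 0.528 and 0.522 in EpiLCs. Pim1 was thus the higher of this pair in every ESC library and the lower in every EpiLC library. The mean log2 ratio differed by -1.32 (0.29 ± 0.148 in ESCs and -1.03 ± 0.167 in EpiLCs, exact permutation test p = 0.1, the smallest possible, and 0.15 after adjustment).

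The remaining member of the kinase family went the other way. Pim2, on chromosome X (7878306 to 7883432, plus strand), was at 126.17, 61.1 and 104.54 TPM in ESCs and 959.4, 875.26 and 982.65 TPM in EpiLCs. All EpiLC libraries were far above all ESC libraries, and ESC replicate 2 was the lowest. Pim2 rose by 3.22 on the log2 scale (SE 0.26, adjusted p = 0.000216), 2.97 without ESC replicate 2. The summed TPM of the family was 257 ± 48.7 in ESCs and 976 ± 54.9 in EpiLCs. Pim1 went from 34.4% ± 2.80 to 1.24% ± 0.182 of that sum, Pim3 from 28.4% ± 4.82 to 2.52% ± 0.239 and Pim2 from 37.2% ± 7.40 to 96.2% ± 0.382.

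Gbx2, on chromosome 1 (89927962 to 89931176, minus strand), encodes a homeodomain factor that can sustain ESCs without LIF when overexpressed, and its window holds TTCCCCTGAA. It was at 12.78, 17.44 and 13.58 TPM in ESCs and 5.77, 3.17 and 8.10 TPM in EpiLCs. The groups did not overlap, but the highest EpiLC library was 2.56 times the lowest, against 1.87 times for Stat3 and less for the other members. Gbx2 fell by 1.41 on the log2 scale (SE 0.34, adjusted p = 0.0141), and without EpiLC replicate 1 the same size of fall, 1.41, was not called (adjusted p = 0.0531).

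Other genes reported as STAT3 targets in ESCs mostly fell as well. Of 19 tested in a list of 20, 13 fell, 1 rose and 5 were not called, with a median log2 fold change of -1.55. Several of these genes are also known as naive pluripotency factors. Klf4, one of them, was at 205.16, 181.96 and 248.6 TPM in ESCs and 1.94, 3.17 and 2.01 TPM in EpiLCs (log2 fold change -6.53, adjusted p = 1.93e-05). Tfcp2l1, through which STAT3 can sustain self-renewal, fell by 5.76 (adjusted p = 2.56e-05). Icam1, whose window holds TTCCCGGAA, fell by 2.25 (adjusted p = 0.000218).

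Ocln, which encodes the tight junction protein occludin, was the gene of the list that rose, from 3.03, 2.69 and 4.12 TPM to 16.12, 19.59 and 13.01 TPM (log2 fold change 2.24, adjusted p = 0.000446). Without ESC replicate 2, 3 genes of the list were called higher, since Cebpd (1.24, adjusted p = 0.0243) and Bcl2l1 (0.41, adjusted p = 0.00371) joined Ocln. With all libraries Cebpd was at 3.71, 6.72 and 1.69 TPM in ESCs and 6.91, 7.42 and 5.31 TPM in EpiLCs. Myc, Cebpb and Ccnd1 were the other genes not called. Without ESC replicate 3, Cebpb (-0.73, adjusted p = 0.0235) and Ccnd1 (-0.75, adjusted p = 0.00631) were called lower, and DESeq2 also called Ccnd1 lower (adjusted p = 0.0387). Ier3 was among the 13 that fell but lost its call on leaving out ESC replicate 1 or any EpiLC replicate (adjusted p between 0.0533 and 0.0874).

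**Figure D4:**
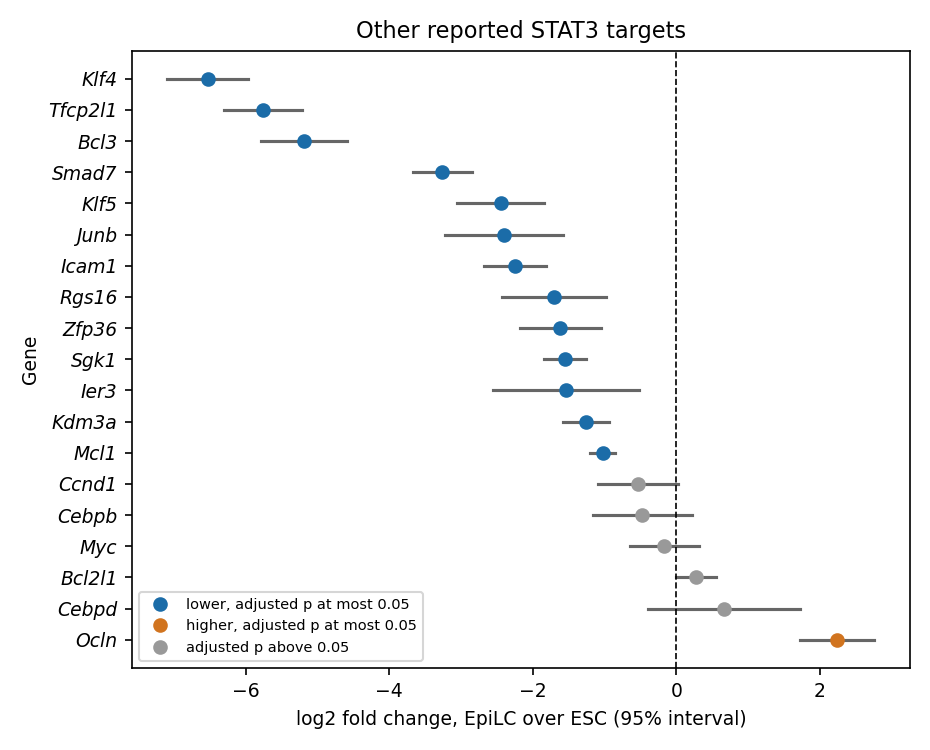
Log2 fold change from ESCs to EpiLCs, with 95% intervals, of 19 other reported STAT3 targets. Blue points fell, the orange point (Ocln, 2.24) rose and grey points did not pass the threshold. Klf4 lies furthest to the left at -6.53.

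The members were then compared with one another across libraries. In ESCs the order of mean TPM ran from Pim1, Socs2, Pim3, Stat3 and Il6st, each overlapping the next, through Socs3, Lifr and Jak1, which also overlapped in turn, down to Gbx2 and Socs1. In EpiLCs Socs2 stood above all others, Jak1 and Pim3 overlapped, Il6st, Stat3 and Pim1 overlapped, Lifr overlapped Gbx2, and Socs1 overlapped Socs3. The summed TPM of the members was 490, 482 and 527 in ESCs and 201, 212 and 188 in EpiLCs, of which Socs2 alone held 84.9 ± 6.08 and 91.7 ± 4.16 TPM.

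By rule, the genes whose log2 CPM followed Socs3 most closely over the 6 libraries were named, out of 9206 genes that averaged 10 CPM or more. They were Tesk2, Utrn, Tfap2c, Plekhf2 and Zfp984, with a Pearson likeness of 0.998 each after rounding. The 6 points fall into the 2 groups of the design and share its step. Their log2 fold changes ranged from -0.43 for Zfp984 to -3.96 for Tfap2c, a transcription factor of trophoblast and germ cells. Tfap2c was at 37.2, 24.88 and 47.42 TPM in ESCs and 2.82, 2.07 and 2.38 TPM in EpiLCs. Like Socs3 it was lowest in ESC replicate 2 among the ESCs.

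The ESC libraries differed in their fibroblast markers, so the order of the members in them was examined. In all 14 tested fibroblast markers ESC replicate 2 was above replicate 1 and replicate 1 above replicate 3, as in 26.0% of all genes tested. Of the members 3 of 10 had this order, namely Il6st, Jak1 and Socs1, whereas Lifr, Socs3, Pim1 and Socs2 were lowest in ESC replicate 2. Without ESC replicate 2, 8 members still fell, with log2 fold changes from -1.27 for Socs1 and Gbx2 to -4.28 for Socs3. Il6st fell by 2.03 in that fit (adjusted p = 6.41e-05). The fibroblast markers' part in the difference of Jak1 and Socs1 was not tested beyond this fit, nor was that of the immediate early genes for any member.

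**Figure D5:**
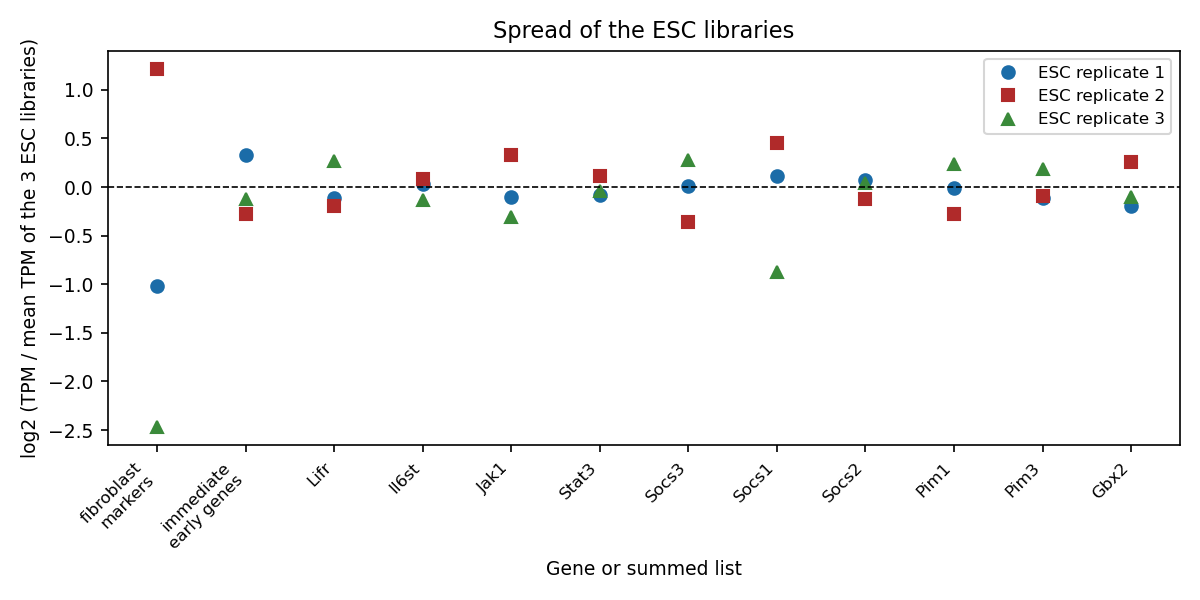
Log2 ratio of each ESC library to the mean of the 3 ESC libraries, for the summed TPM of the fibroblast markers and of the immediate early genes and for the TPM of each member. The fibroblast sum spreads most, from 151 TPM in replicate 3 to 1950 TPM in replicate 2, and the members stay closer to 0.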

How the data were processed

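RNA-seq of mouse ESCs and EpiLCs, with 3 biological replicates of each, was analysed. The authors trimmed adapters with cutadapt 1.16, aligned 76 nt single-end, strand-specific reads with STAR 2.5.2a and quantified the mm10 RefSeq genes with RSEM 1.3.0. The authors deposited expected counts, which are not normalized and split reads shared between genes, and TPM, which are scaled for length and library. Between 4.27% and 4.65% of expected counts per library were not whole. The study's methods give 72 h for EpiLC culture, whereas its results and the labels give 48 h.

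Expected counts were rounded, scaled by TMM, filtered with filterByExpr, which left 14468 of 24736 genes, and tested without a block in edgeR 4.0.16 (under R 4.3.3) by its quasi-likelihood method, with Benjamini-Hochberg adjustment over all genes tested and a threshold of 0.05. SE is the log2 fold change over the root of the F statistic. At the depths of 16967741 to 35096210 counts, 3 counts equal 0.0855 to 0.177 CPM, which covers counting error only. Ratios of TPM were tested by exact permutation. Alternatives were DESeq2 1.42.0, upper-quartile scaling, other filters, limma 3.58.1 on log2(TPM + 1) and log2(TPM + 0.1), the replicate block and leaving out libraries, of which the fit without ESC replicate 2 and EpiLC replicate 3 together was added after seeing the data.

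The members and lists were chosen with earlier results of these data known. Members are named throughout, and other lists by at most 4 examples, the 2 with the smallest adjusted p in each direction, plus genes on which a count of 5 or fewer rests. Icam1, Stat4, Ier3, Socs4, Socs7, Cish, Stat2 and Stat5b, and list genes whose call depended on a library, were named after their values were seen. The tests were tried on simulated data. Promoters and positions are from RefSeq on GRCm38.p6. Some results are not reported here.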

Additional observations from a re-analysis of the deposited data

How the results depend on the processing

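The fall of Lifr, Il6st, Stat3, Socs3, Pim1 and Pim3 kept its direction and its call in all 14 alternative fits, Socs2 was called in none, and 0 members reversed. The count of members that fell ranged from 7 to 9 over the alternatives and on leaving out each library in turn, and 0 rose in any fit. For the other pathway genes the leave-one-out counts were 11 to 19 lower and 2 to 4 higher, and for the other STAT3 targets 12 to 15 lower and 1 to 3 higher, with 3 higher also without ESC replicate 2 and EpiLC replicate 3 together. Without EpiLC replicate 1 the calls over all genes dropped to 2144 higher and 2100 lower, from 3267 and 3304, and leave-one-out counts reached 3572 and 3609. The difference of the ratio of Lifr to Il6st ranged from -0.20 to 0.14 on leaving out each library, and it reversed to 0.1421 without ESC replicate 3 and to 0.0076 without EpiLC replicate 1. The causes were not tested. Of 473 alternative fits of 34 other named genes, 440 kept their call, 33 lost it and 0 reversed. Depth limits Il6 and Osm in EpiLCs, which had at most 1 count per library, and a filter of 10 counts in every library removed Il6, Osm and Osmr.

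Same-numbered ESC and EpiLC libraries deviated from their group means with correlations of 0.00668, 0.186 and 0.17 over genes, so the numbers were not taken to pair the samples, and ESC replicate 1 and EpiLC replicate 1 were each closer to another number. With the replicate number as a block, 9 members fell and 0 rose, Jak1 being called (-0.44, adjusted p = 0.0218). Under the block 2979 genes were higher and 3106 lower, of the pathway genes 2 were higher and 15 lower, with Cntfr and Il11ra1 no longer called, and of the other STAT3 targets 1 and 13. For the ratios, exact sign changes within numbers gave p = 0.75, 0.25 and 0.25, where 0.25 is the smallest possible.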
